A study of Mus musculus with 25 samples.

Results

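Kinesins are motor proteins that use ATP to walk along microtubules or to take microtubule ends apart. In a dividing cell they build the spindle, move chromosomes and complete cytokinesis, and in a non-dividing cell they carry vesicles, organelles and RNA. In the testis, male germ cells pass through mitotic divisions, meiosis and a long reshaping of the haploid spermatid, in which a skirt of microtubules (the manchette) and a flagellum are built, while the somatic Sertoli cells span the tubule and hold the germ cells and the Leydig cells between the tubules make testosterone. The kinesins were taken as every gene symbol of the count tables that starts with Kif or Kifc, followed by a number and lower-case letters. That gave 41 of 29244 symbols, with 190488 of 65063387 transcripts counted (0.293%). Of the 41 symbols, 40 name a motor or a motor-like protein and 1, Kif16bos, names an RNA annotated as antisense. It lies before the start of Kif16b, on the opposite strand. By textbook role, 16 kinesins were listed under spindle and chromosomes, 9 under cilium and flagellum and 15 under cargo transport and the cell cortex.

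Testis cells had been profiled by Drop-seq, a droplet method that tags the 3′ ends of a cell's transcripts with the barcode of 1 bead and counts them by unique molecular identifiers (UMIs). There were 25 libraries, 21 of whole testis and 4 of sorted cells. The 11 Wild-type libraries came from C57BL/6 males of 3 months 1 day to 9 months 14 days. The 6 Mlh3-/- libraries (2 months 21 days to 8 months 30 days) and the 2 Cul4a-/- libraries (1 month 18 days and 1 month 21 days) came from males with the strain label B6;129, so genotype and background cannot be told apart. The 2 libraries labelled CNP eGFP BAC TRAP came from C57BL/6 males of 2 months 14 days and 2 months 16 days that carry a transgene. The ages of the Cul4a and CNP libraries are those of the labels and are in doubt, since the study's own sample list has them the other way round, as it has the barcode numbers of the 2 CNP libraries. Wild-type replicates 1 and 2 were dissociated with enzymes and all other whole testes mechanically. The study sequenced on Illumina HiSeq or MiSeq machines, and platform was not a factor in the main comparisons of strains. The sorted Spermatogonia (genotype label Pouf51-EGFP, a B6;CBA line by the study's methods, 7 days after birth, 5 mice pooled, enzymatic dissociation) and the Primary Spermatocyte, Secondary Spermatocyte and Spermatid populations (Wild-type C57BL/6, 2 months 21 days, sorted with Hoechst dye) had 1 library each. The transcripts of Mlh3 and Cul4a were not lower in their own knockouts: Mlh3 averaged 44.7 CPM (a gene's UMIs divided by all UMIs of the library and scaled to 1000000) in Wild-type and 49.8 CPM in Mlh3 libraries, and Cul4a averaged 30.7 CPM in Wild-type and 51.8 CPM in Cul4a libraries. These are means over whole libraries, whose mixes of cells differ, and they do not check a genotype. The place of the 3′ tags relative to the deleted parts was not tested. Between clustered Wild-type and mutant cells, the study did report a difference in Mlh3 expression.

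Whole-testis libraries held 357235 to 9745302 UMIs (median 2576385) and the sorted libraries 107117 to 1168498. Of 48642 barcodes, 36619 cells passed the filters. The limit on the mitochondrial transcript mt-Rnr2 removed 71.0% of the Mlh3 cells that had passed the other filters (6820 of 9606), against 2.11% of the Wild-type, 4.68% of the Cul4a and 2.5% of the CNP cells, and the part of this in the Mlh3 comparisons was not tested beyond the values given without the limit. They were clustered without any kinesin row, so that the levels of kinesins played no part in forming the classes, and clusters were named from marker genes. Spermatogonia-like cells (72 cells) were had from 3 Mlh3 and 2 Cul4a libraries and from no Wild-type library, leptotene/zygotene-like cells (205) from 11 libraries, pachytene-like (2806) from 19, meiotic division-like (3098) from 16, round spermatid-like (4130) and elongating spermatid-like (4483) from 15 each, Sertoli-like (320) from 11 and Leydig-like (652) from 6 Mlh3 and 2 Cul4a libraries. A class of a library needed at least 10 cells. The Mlh3 libraries had no spermatid-like class, and their testes are known to stop in meiosis. Clusters that stayed unnamed held 63.7% of the Wild-type cells, 23.5% of the Mlh3, 27.2% of the Cul4a and 63.9% of the CNP cells. Markers of spermatids were also counted in other classes: the summed level of the 14 elongating spermatid markers (protamines and the like) in Sertoli-like cells was 29495 to 81611 CPM in the 5 Wild-type libraries and 41319 and 64764 CPM in the Cul4a libraries, but 27.9 to 118 CPM in the 4 Mlh3 libraries. Values below are CPM of the UMIs summed per library and class, and the library is the replicate. A 3′ UMI stands for 1 transcript whatever its length, so CPM of different kinesins were compared without dividing by length.

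The kinesins a class used most changed from class to class. Kif3a, a motor subunit of the heterotrimeric kinesin-2 that builds cilia and carries cargo, led the spermatogonia-like cells with 394 ± 212 CPM (SD, n = 5 libraries). Its mean was 496 CPM in the 3 Mlh3 profiles and 242 CPM in the 2 Cul4a profiles. In the Cul4a profiles Kif23 (303 CPM), Kif20b (287 CPM) and Kif5b (255 CPM) stood above Kif3a. Kif2a, a kinesin-13 that shortens microtubules at their ends, led the leptotene/zygotene-like cells (363 ± 237 CPM, n = 11), the pachytene-like cells (560 ± 108 CPM, n = 19) and the meiotic division-like cells (750 ± 121 CPM, n = 16). Kif2b, a further kinesin-13, led the round spermatid-like cells with 1947 ± 307 CPM (n = 15), which was 48.8% of the summed kinesin level there. In elongating spermatid-like cells Kif2b (628 ± 125 CPM) and Kif2c (621 ± 80.8 CPM, the third kinesin-13, known as MCAK) stood side by side (n = 15). Kif5b (385 ± 131 CPM, n = 8), the ubiquitous heavy chain of conventional kinesin, led the Leydig-like cells. In Sertoli-like cells the order also differed by strain. Kif21a, a kinesin that restrains microtubule growth at the cell cortex, had a mean of 759 CPM in 4 Mlh3 profiles, 174 CPM in 5 Wild-type and 206 CPM in 2 Cul4a profiles. Mlh3 replicate 2 raised the Mlh3 mean. Without this library, left out after seeing the data, the mean over all strains was 271 rather than 393 CPM. Kif2b had 0 CPM in Mlh3, 681 CPM in Wild-type and 444 CPM in Cul4a profiles, and the summed spermatid markers given above were high in the same profiles as Kif2b. Kif5b had 569, 195 and 126 CPM in Mlh3, Wild-type and Cul4a profiles. The summed kinesin level was 2885 ± 740 CPM in spermatogonia-like, 3992 ± 479 CPM in round spermatid-like and 1726 ± 402 CPM in Leydig-like cells. In spermatogonia-like cells 26 kinesins had a mean of 20 CPM or more, against 16 in elongating spermatid-like and in Leydig-like cells. A level of 20 CPM in spermatogonia-like cells rests on few UMIs. Over these 8 classes, 15 of the 41 symbols had their highest class mean in spermatogonia-like, 3 in leptotene/zygotene-like, 4 in pachytene-like, 4 in meiotic division-like, 2 in round and 6 in elongating spermatid-like, 2 in Sertoli-like and 5 in Leydig-like cells. These means are scaled to the total of each profile only, and spermatogonia-like profiles held just 22504 to 58730 UMIs. Neither the count at 20 CPM nor that of the highest class means was made over all genes, so neither is read as a trait of kinesins.

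**Figure D1:**
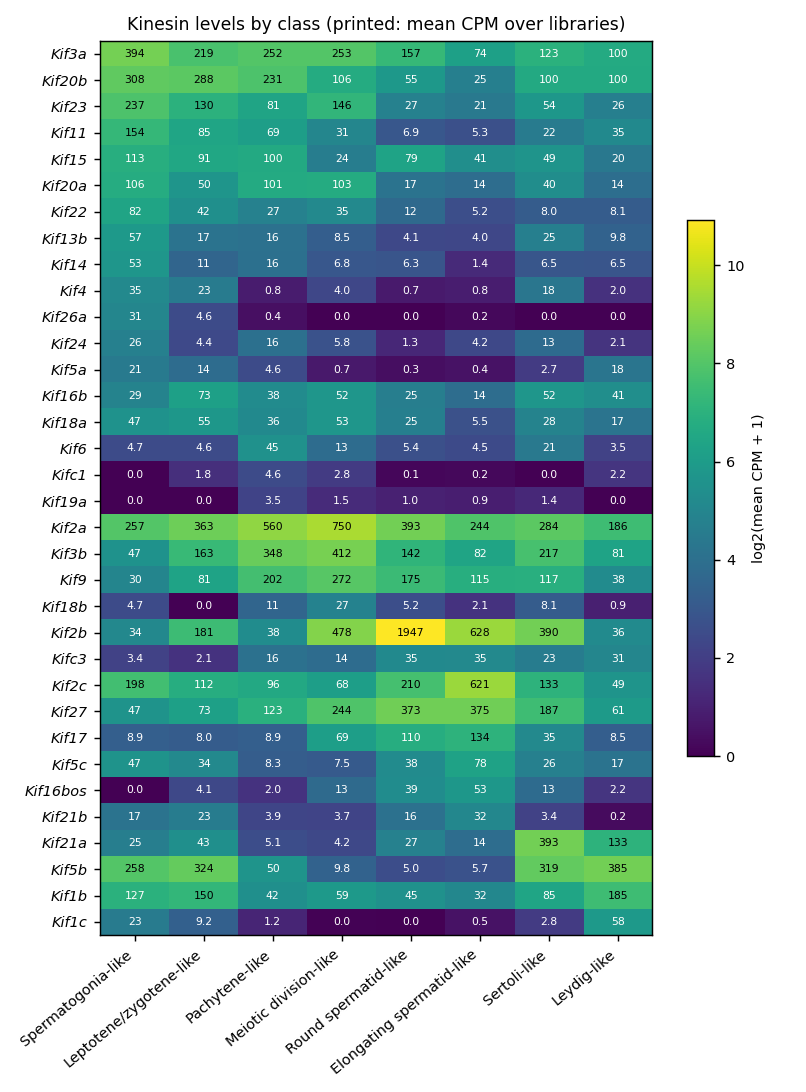
Mean level of 34 kinesin symbols in the 8 classes of cells (columns), as CPM of summed UMIs averaged over libraries, on a log colour scale. The rows are those with 20 CPM or more in a class or sorted population, ordered by the class of their highest mean. Kif2b reaches 1947 CPM in round spermatid-like cells, Kif5b lies at 258 to 385 CPM in spermatogonia-, leptotene/zygotene-, Sertoli- and Leydig-like cells and at 10 CPM or less from the divisions on, and the spindle kinesins Kif23, Kif20b and Kif11 have their highest means in spermatogonia-like cells, for Kif11 through 1 library (Mlh3 replicate 6). In Mlh3 libraries alone, leptotene/zygotene-like cells are higher in Kif20b (489 against 322 CPM) and Kif23 (225 against 194 CPM). The Cul4a libraries keep the order of these 2 classes for Kif20b and Kif23 but not for Kif11 (23.6 CPM in spermatogonia-like against 31.2 CPM in leptotene/zygotene-like cells).

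Spermatogonia-like cells were compared with the mean of the 5 later germ classes, with edgeR's quasi-likelihood test on summed UMIs, the library as a block and Benjamini-Hochberg adjustment over all 22010 genes tested. The scaling of the libraries decides many calls between classes. Scale factors by the trimmed mean of M-values (TMM) had medians from 0.445 in elongating spermatid-like to 2.69 in spermatogonia-like profiles. What sets these factors apart was not tested. Counts over all kinesins are therefore given with TMM and with plain library totals, and a kinesin is called higher or lower without further remark only where both agree. With TMM 4 kinesins were higher and 10 lower in spermatogonia-like cells (14 of 41, where 27.9% of all genes were called). With library totals 17 were higher and 4 lower, where 26.8% of all genes were called. The median over all genes moved by 0.57 on the log2 scale between the scalings.

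The 4 kinesins higher under both scalings were Kif5b, Kif4, Kif1c and Kif26a. Kif5b was at 392, 124 and 267 CPM in the Mlh3 replicates 2, 5 and 6 and at 260 and 249 CPM in the Cul4a replicates, on 54 UMIs in all, against 5.03 ± 7.50 CPM in round spermatid-like cells (n = 15). Its log2 fold change over the later classes was 1.52 ± 0.30 (SE, adjusted p = 5.2e-06). The leptotene/zygotene-like cells, which follow directly, had as much Kif5b (lowest 101, median 273, highest 676 CPM over 11 libraries), and the 2 classes overlapped. Kif4, a chromokinesin that shapes mitotic chromosomes and whose gene lies on the X chromosome, was at 51.1, 30.9, 44.4, 47.2 and 0 CPM in the same 5 libraries, on only 7 UMIs, and its log2 fold change was 1.95 ± 0.68 (adjusted p = 0.0246). Without Cul4a replicate 1 (1.42) or Mlh3 replicate 2 (1.60) it was not called. Its mean was 22.6 CPM in leptotene/zygotene-like and 0.779 CPM in pachytene-like cells. The tables also hold Kif4-ps, a pseudogene copy with 1506 UMIs against 283 for Kif4, so the division of reads between them is uncertain. Kif1c, a fast cargo motor, and Kif26a, an atypical kinesin without motor activity, had 5 UMIs each in these cells, and Kif1c was not called with DESeq2, at a log2 fold change of 4.91 (adjusted p = 0.0954).

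Among the spindle kinesins, Kif20b, needed to finish cytokinesis, was at 409, 247, 311, 449 and 125 CPM in spermatogonia-like cells. Kif23, the motor subunit of the centralspindlin complex of the midzone, was at 119, 61.9, 400, 331 and 274 CPM. Kif11, the tetrameric motor that pushes spindle poles apart, was at 51.1, 92.8, 578, 47.2 and 0 CPM on 21 UMIs. All 3 lay above every later class when averaged over all libraries of a class, Kif11 through Mlh3 replicate 6 alone (47.8 CPM without it, left out after seeing the data, against 85.3 CPM in leptotene/zygotene-like and 69.3 CPM in pachytene-like cells), but passed the test only with library totals, with log2 fold changes of 1.34, 2.12 and 2.38. In Mlh3 profiles alone, leptotene/zygotene-like cells had more Kif20b (489 against 322 CPM) and Kif23 (225 against 194 CPM) than spermatogonia-like cells. In Cul4a profiles they had less of both (237 against 287 CPM and 197 against 303 CPM). Of the 16 spindle kinesins, 1 was higher and 3 lower with TMM, and 8 were higher and 1 lower with library totals. Kif17, Kifc3 and Kif2a were lower with TMM only (log2 fold changes of -3.35, -3.01 and -2.11), as were Kif1b and Kif2c, and Kif17 and Kifc3 were not called without either Cul4a replicate (-2.56 and -2.27 for Kif17). The cargo kinesins gave 3 higher and 2 lower with TMM, and 6 higher and 0 lower with library totals.

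The kinesins lower under both scalings were Kif3b, Kif9, Kif2b and Kif27. Kif3b, the usual partner of Kif3a in kinesin-2, was at 46.7 ± 28.2 CPM in spermatogonia-like and 348 ± 94.3 CPM in pachytene-like cells, with no overlap, and its log2 fold change was -3.67 ± 0.43 (adjusted p = 8.3e-16). Kif3a and Kif3b thus had opposite orders: Kif3a was higher than Kif3b in each of the 5 spermatogonia-like profiles, whereas Kif3b averaged more than Kif3a in pachytene-like (348 and 252 CPM) and meiotic division-like cells (412 and 253 CPM). Kif9, a flagellar kinesin, rose from 30.4 ± 19.8 CPM in spermatogonia-like to 202 ± 41.5 CPM in pachytene-like cells and was -3.55 ± 0.48 on the log2 scale against the later classes (adjusted p = 2.7e-12). Kif27, a relative of the Hedgehog pathway kinesin Kif7 that is tied to motile cilia, was -3.01 ± 0.44 (adjusted p = 3.2e-10). With DESeq2 neither Kif27 (-1.22) nor Kif2b was called. Kif2b had 0 UMIs in all 3 Mlh3 profiles and 118 and 49.9 CPM in the Cul4a profiles. Elongating spermatid markers moved the same way, at 0 to 34.1 CPM in the Mlh3 and 7832 to 11315 CPM in the Cul4a spermatogonia-like cells, and their part in the Kif2b level was not tested. Kif16bos had 0 UMIs in all 5 profiles and no fold is given.

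Sorted spermatogonia, from young testes without spermatids, gave a second view with far more depth (1168498 UMIs, 296 barcodes), but only 1 library, so no test was possible and intervals cover counting error only. Of the sorted cells kept, 212 fell into the spermatogonia-like class and 9 into the Sertoli-like class. Kif20b was at 410 CPM (95% Poisson interval 374 to 448), Kif3a at 360 CPM (327 to 396), Kif5b at 300.0 CPM (269 to 333), Kif23 at 228 CPM (201 to 257), Kif11 at 141 CPM (120 to 164) and Kif20a, a Golgi and midzone motor, at 140 CPM (120 to 164). Each of these stood within the range of the 5 spermatogonia-like profiles. Kif4 had 99 UMIs (84.7 CPM, 68.9 to 103) and Kif22, a chromokinesin that pushes chromosome arms, 110 UMIs (94.1 CPM, 77.4 to 113). Kif4 had 0 UMIs in the other 3 sorted libraries, which allows up to 28.0 CPM in the Primary Spermatocyte, 11.4 CPM in the Secondary Spermatocyte and 12.6 CPM in the Spermatid library. Kif2b had 0 UMIs in sorted spermatogonia, which allows up to 2.57 CPM. Kif9 had 1 UMI there (0.856 CPM, 0.0217 to 4.77).

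Before the divisions, in prophase of meiosis, class means were ranked without the sorted libraries. Kif16b, Kif18a and Kifc5b had their highest mean of any class in leptotene/zygotene-like cells, and Kif6, Kif19a, Kif26b and Kifc1 in pachytene-like cells. Kif6, a kinesin of motile cilia, was the clearest of these: it was at 44.6 ± 12.1 CPM in pachytene-like cells (lowest 22.1, median 45.3, highest 73.2, n = 19), 4.59 ± 11.9 CPM in leptotene/zygotene-like cells, 13.5 ± 8.62 CPM in meiotic division-like and 5.42 ± 3.96 CPM in round spermatid-like cells. Pachytene-like and meiotic division-like cells overlapped a little in Kif6 (highest meiotic division-like profile 28.4 CPM), and pachytene-like and round spermatid-like cells did not (highest 12.6 CPM). Kif20b was at 288 ± 198 CPM in leptotene/zygotene-like, 231 ± 117 CPM in pachytene-like, 106 ± 58.1 CPM in meiotic division-like and 55.2 ± 13.2 CPM in round spermatid-like cells. In Wild-type libraries alone the first 2 of these were 195 ± 165 CPM (n = 5) and 199 ± 34.7 CPM (n = 9), and the 3 Mlh3 leptotene/zygotene-like profiles had a mean of 489 CPM. Kif5b went from 324 ± 180 CPM in leptotene/zygotene-like to 49.6 ± 42.8 CPM in pachytene-like and 9.80 ± 7.40 CPM in meiotic division-like cells. Kif19a, which trims cilia, stayed under 4 CPM in every class and passed 20 CPM only in the sorted Primary Spermatocyte library, on 3 UMIs. The pachytene-like mean of Kif26b was only 0.858 CPM. Sorted spermatogonia had more Kifc1, at 30.8 CPM (36 UMIs, 21.6 to 42.7), against 4.57 CPM in pachytene-like and 0 UMIs in spermatogonia-like cells. Kif18a was at 77.9 CPM (62.7 to 95.6) in sorted spermatogonia, against 54.7 CPM in leptotene/zygotene-like cells. Kifc5b likewise stood higher in a sorted library than in any class mean. The leptotene/zygotene-like ranks of Kif16b, Kif18a and Kifc5b rest on few UMIs. Kifc5b had 2 UMIs there, all in a single Mlh3 profile (78.2 CPM). In the 5 Wild-type profiles Kif16b (72.6 ± 93.5 CPM) and Kif18a (42.4 ± 58.1 CPM) had 4 UMIs each.

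In the meiotic division-like cells, which sit between pachytene-like and round spermatid-like cells, the question was which kinesins stood above both neighbours' mean. Of 41 kinesins, 15 were higher and 7 lower, where 32.8% of all genes were called, and all 22 calls held with library totals too. Of the 16 spindle kinesins, 10 were higher and 2 lower. The 9 cilium kinesins gave 3 higher and 0 lower (4 and 0 with library totals), and the 15 cargo kinesins 2 higher and 5 lower. Over all genes the median log2 fold change was 0.03, and over the kinesins it was 0.06.

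Kif23 was at 146 ± 33.5 CPM in meiotic division-like cells (lowest 74.6, median 146, highest 214, n = 16), 81.2 ± 43.8 CPM in pachytene-like and 26.8 ± 11.4 CPM in round spermatid-like cells. Its log2 fold change over the mean of these neighbours was 1.62 ± 0.13 (adjusted p = 8.5e-34). Meiotic division-like and round spermatid-like profiles did not overlap in Kif23 (highest round spermatid-like profile 41.2 CPM), and meiotic division-like and pachytene-like profiles did. Kif20a was at 103 ± 29.7 CPM (lowest 54.5, median 103, highest 171), as high as in pachytene-like cells (101 ± 27.4 CPM), and fell to 16.8 ± 8.52 CPM in round spermatid-like cells, with a log2 fold change of 1.26 ± 0.14 (adjusted p = 2.0e-18) over the neighbours' mean. Kif18b, which controls the length of astral microtubules, had its highest mean of the 8 classes here, 27.5 ± 11.5 CPM against 10.9 ± 7.22 CPM in pachytene-like and 5.22 ± 2.66 CPM in round spermatid-like cells, and a log2 fold change of 1.75 ± 0.20 (adjusted p = 3.1e-16). Kif22 was 1.07 ± 0.18, Kif18a, which aligns chromosomes on the metaphase plate, 0.86 ± 0.15, and Kif11 0.81 ± 0.18 on the same scale (adjusted p at most 2.9e-05). Kif2a stood at its highest class mean (lowest 479, median 732, highest 1041 CPM) with a log2 fold change of 0.57. The highest values of Kif23 and Kif2a came from the only Mlh3 profile of this class, of 31 cells, which had 0 UMIs of Kif2b and Kif18b. Kif4 and Kifc1, a minus-end motor that focuses spindle poles, were also called higher but averaged 3.97 and 2.75 CPM. Kifc1 and Kifc5b are near-identical copies on chromosome 17 whose reads may be divided between them, and their values are uncertain.

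The spindle kinesins did not all take part. Kif15, which works beside Kif11 in spindle assembly, was lower in meiotic division-like cells (24.0 ± 17.3 CPM) than in pachytene-like (99.9 ± 51.6 CPM) and round spermatid-like cells (79.4 ± 33.9 CPM), with a log2 fold change of -1.82 ± 0.16 (adjusted p = 3.5e-27). Kif2c likewise dipped to 68.3 ± 28.9 CPM between 95.9 ± 31.5 and 210 ± 49.5 CPM, with a log2 fold change of -1.12 ± 0.14 (adjusted p = 9.9e-14). Outside the spindle list, Kif3b (412 ± 91.8 CPM, log2 fold change 0.84 ± 0.11, adjusted p = 6.1e-12) and Kif9 (272 ± 46.6 CPM, 0.45) had their highest class means in meiotic division-like cells, and Kif16b, which moves early endosomes, was higher by 0.76 ± 0.15. Kif5c, the neuronal heavy chain of conventional kinesin, was lower by -1.40 ± 0.23 (adjusted p = 2.2e-08) and the minus-end motor Kifc3 by -0.70 ± 0.19 (adjusted p = 0.00155), and neither was called with Wild-type libraries alone. Kif2b (478 CPM) and Kif17 (68.8 CPM) were called higher than the mean of the neighbours on the log scale, but both lay between them, above pachytene-like and below round spermatid-like cells. Kif11 and Kifc1 also lay between them, on the way down: Kif11 averaged 69.3, 31.2 and 6.91 CPM in pachytene-like, meiotic division-like and round spermatid-like cells, and Kifc1 4.57, 2.75 and 0.149 CPM. Among 20 partners of spindle kinesins, such as the kinases Plk1 and Aurka and the passenger protein Incenp, 16 were higher and 1 lower (17 and 1 with library totals), with log2 fold changes of 1.72, 1.61 and 1.31 for these 3. Plk1 and Aurka were also among the markers that named this class, and the partners, unlike the kinesins, took part in the clustering. Cenpe, a kinesin of the kinetochore whose symbol the rule leaves out, was higher by 1.43 ± 0.11 (adjusted p = 8.9e-34). Stard9, the other such kinesin, had a log2 fold change of 0.03.

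**Figure D2:**
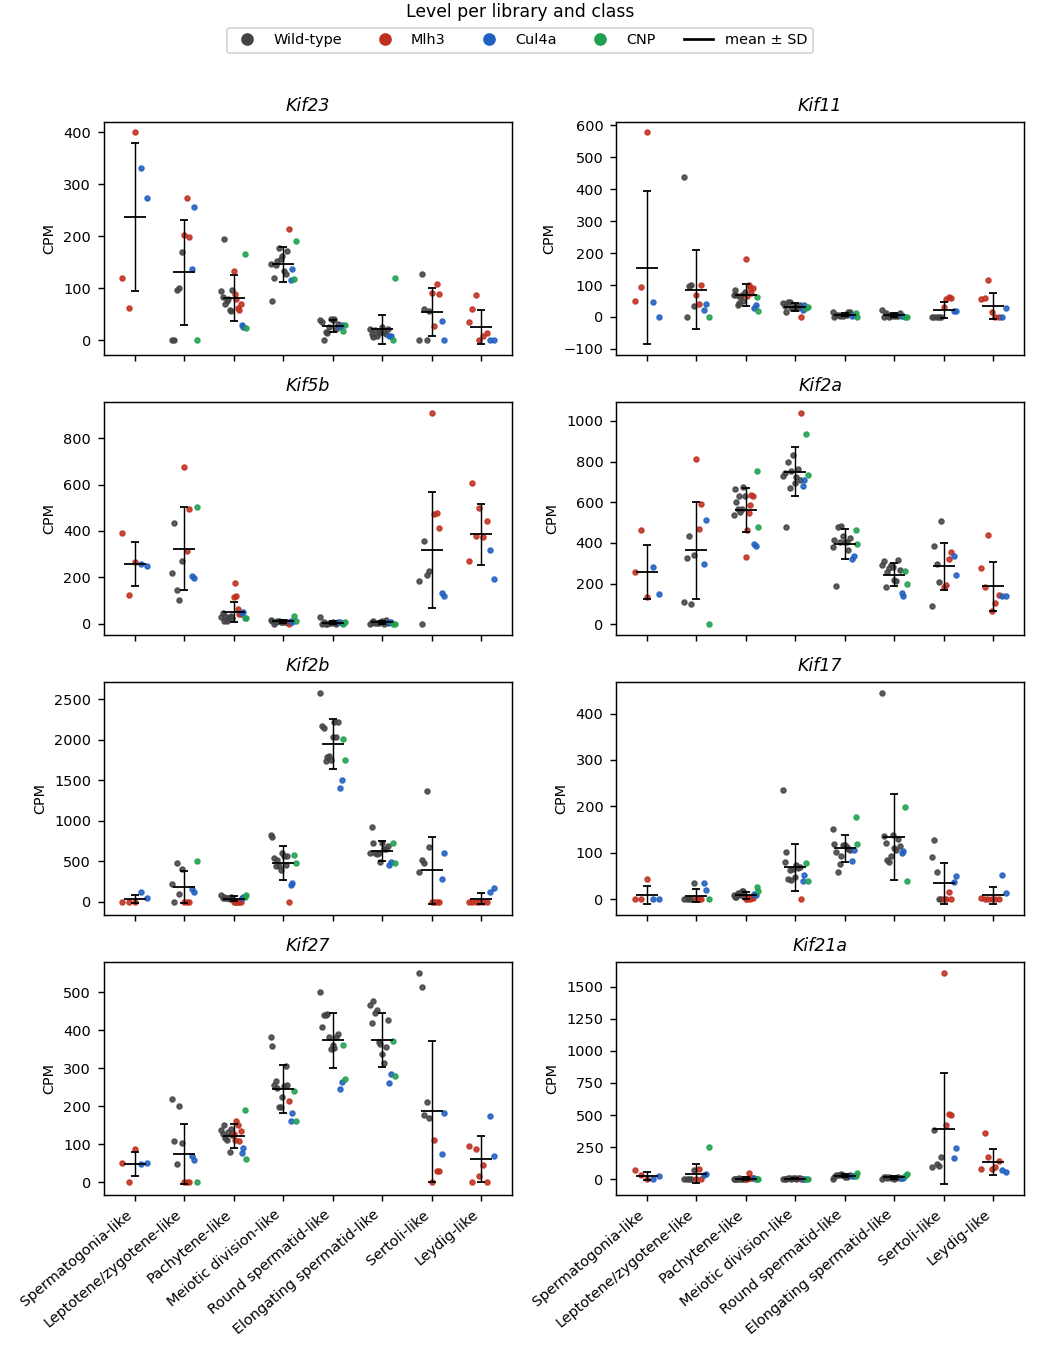
Level of 8 kinesins (CPM, 1 point per library and class, coloured by strain, with the mean ± SD of the class) along the 6 germ classes and in Sertoli- and Leydig-like cells. Kif23 has a mean of 146 CPM in meiotic division-like cells and 26.8 CPM in round spermatid-like cells, Kif2b climbs from 38.4 CPM in pachytene-like to 1947 CPM in round spermatid-like cells, and Kif21a and Kif5b are highest in the somatic classes and, for Kif5b, in the earliest germ cells.

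Promoters of all spindle kinesins with a window, whichever way they moved, were read for 2 motifs of cell cycle genes, CCAAT and TTTGAA, on both strands. The windows came from RefSeq (GRCm38.p6) and ran from 250 bases before to 50 bases after a start, and 33 of the 41 symbols had one. CCAAT was found in 10 and TTTGAA in 11 of the 15 spindle kinesins with a window, against 37.4% and 17.9% of all 32851 windows, and 8 of the 15 (53.3%) held both against 6.95% of all windows. The letters of a motif in a window are a description and show no binding. The windows of Kif23 (chr9:61946750-61947049, minus strand) and Kif11 (chr19:37376132-37376431, plus strand), which were lower in spermatid-like cells than before the divisions, are printed because both hold the 2 motifs close to each other near the start. Capitals mark CCAAT, which reads ATTGG from the other strand, the letters of TTTGAA, which read TTCAAA from there, and GTTGCC.
Kif23: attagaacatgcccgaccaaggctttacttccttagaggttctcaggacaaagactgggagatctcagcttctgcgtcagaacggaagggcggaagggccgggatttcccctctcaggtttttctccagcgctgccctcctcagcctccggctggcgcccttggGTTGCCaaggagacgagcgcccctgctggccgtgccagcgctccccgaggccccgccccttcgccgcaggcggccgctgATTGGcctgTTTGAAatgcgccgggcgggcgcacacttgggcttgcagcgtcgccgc
Kif11: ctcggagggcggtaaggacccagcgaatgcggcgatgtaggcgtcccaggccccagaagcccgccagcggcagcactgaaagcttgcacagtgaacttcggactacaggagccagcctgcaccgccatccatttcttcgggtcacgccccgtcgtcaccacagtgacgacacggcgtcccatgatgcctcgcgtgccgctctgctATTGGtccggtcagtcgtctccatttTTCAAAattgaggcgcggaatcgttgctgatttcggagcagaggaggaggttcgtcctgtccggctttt

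After the divisions, round and elongating spermatid-like cells were compared with leptotene/zygotene- and pachytene-like cells. With TMM 15 kinesins were higher and 8 lower in the spermatid-like cells (23 of 41, where 46.6% of all genes were called). With library totals 10 were higher and 22 lower, where 46.7% of all genes were called, and the median over all genes moved by -0.68 on the log2 scale. Under both scalings 10 kinesins were higher and 8 lower, and 4 (Kif3b, Kif1b, Kif15 and Kif2a) turned around. Of the 16 spindle kinesins, 4 were higher and 6 lower with TMM, and 2 higher and 12 lower with library totals. The 9 cilium kinesins gave 4 higher and 0 lower with TMM, and 2 higher and 3 lower with totals, and the 15 cargo kinesins 6 higher and 2 lower with TMM, and 5 higher and 7 lower with totals.

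Kif2b, whose gene lies on chr11:91575315-91577558 (GENCODE vM21, GRCm38), had the highest level of any kinesin in any class. It was at 38.4 ± 29.1 CPM in pachytene-like cells, 478 ± 206 CPM in meiotic division-like cells, and 1947 ± 307 CPM in round spermatid-like cells (lowest 1405, median 2017, highest 2585, n = 15, 19047 UMIs). It fell again to 628 ± 125 CPM in elongating spermatid-like cells (lowest 452, median 608, highest 927, n = 15). No elongating profile reached the lowest round profile. The log2 fold change of spermatid-like over earlier cells was 4.53 ± 0.16 (adjusted p = 3.6e-167) with TMM and 3.14 with library totals, and that of elongating over round cells was -1.23 ± 0.14 (adjusted p = 2.7e-17). In leptotene/zygotene-like cells Kif2b was at 0 CPM in the 3 Mlh3 profiles and up to 501 CPM in the other 8, on 47 UMIs, where elongating spermatid markers ran from 0 to 67.6 CPM in the Mlh3 and from 6518 to 29302 CPM in the other profiles.

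Kif2c went the opposite way to Kif2b within the spermatids. It rose from 210 ± 49.5 CPM (lowest 147, median 190, highest 333) in round to 621 ± 80.8 CPM (lowest 469, median 602, highest 795) in elongating spermatid-like cells, without overlap, and its log2 fold change was 1.97 ± 0.14 (adjusted p = 9.5e-42). Against the cells before the divisions the spermatid-like cells had 3.13 ± 0.16 (adjusted p = 3.1e-80). Between elongating and round cells, 8 kinesins were higher and 12 lower with TMM (20 of 41, where 34.3% of all genes were called), and 5 were higher and 17 lower with library totals, where 38.9% of all genes were called. Under both scalings 5 were higher and 12 lower. Kif21b (15.8 ± 10.04 and 31.9 ± 7.50 CPM, log2 fold change 1.66 ± 0.22, adjusted p = 2.0e-12) and Kif5c (38.1 ± 25.2 and 77.6 ± 40.6 CPM, 1.45 ± 0.18, adjusted p = 1.1e-14) were higher in elongating cells beside Kif2c. Kif18a (-1.54 ± 0.27), Kif16b (-0.91 ± 0.25), Kif20b (-0.73 ± 0.20), Kif3a (-0.66 ± 0.16), Kif23 (-0.58 ± 0.23) and Kif15 (-0.44 ± 0.17) were lower, with adjusted p between 1.7e-07 and 0.037. Kif21a was lower by -0.71 ± 0.24. With DESeq2 all but Kif18a of these 7 lost the call, and Kif23 and Kif15 were not called with Wild-type libraries alone (-0.31 and -0.30).

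Kif17, a homodimeric kinesin-2 that in testis shuttles the transcriptional coactivator ACT, was at 8.92 ± 7.46 CPM in pachytene-like, 68.8 ± 50.1 CPM in meiotic division-like, 110 ± 28.8 CPM in round (lowest 57.7, median 108, highest 177) and 134 ± 92.8 CPM in elongating spermatid-like cells (lowest 40.1, median 110, highest 445). The highest value in meiotic division-like and in elongating spermatid-like cells came from Wild-type replicate 1, which was dissociated with enzymes and had the fewest UMIs of the whole testes. The log2 fold change of spermatid-like over earlier cells was 4.00 ± 0.23 (adjusted p = 1.5e-67), and the rise from round to elongating cells was called with TMM (0.60) but not with library totals (0.19). Kif27 was at 123 ± 31.6 CPM in pachytene-like, 244 ± 63.2 CPM in meiotic division-like, 373 ± 71.9 CPM in round (lowest 245, median 381, highest 502) and 375 ± 70.8 CPM in elongating spermatid-like cells, and round and elongating cells overlapped throughout. Its log2 fold change over the earlier cells was 3.23 ± 0.17 (adjusted p = 5.6e-77). Kif5c (3.37 ± 0.27), Kif21b (3.79 ± 0.40) and Kifc3 (2.78 ± 0.33) were the other motors named among those higher, and Kifc3 stood at 35.3 ± 12.7 CPM in round and 34.7 ± 13.2 CPM in elongating cells. The antisense RNA Kif16bos (chr2:142902965-142903572) followed the spermatids too, with 2.02 ± 3.17 CPM in pachytene-like, 39.2 ± 13.1 CPM in round and 53.3 ± 25.4 CPM in elongating spermatid-like cells and a log2 fold change of 4.52 ± 0.30 (adjusted p = 1.1e-49). Kif16b itself fell from 37.8 ± 16.8 CPM in pachytene-like to 24.5 ± 8.33 and 14.1 ± 12.9 CPM in the same classes. The 2 genes lie on opposite strands and share 0 bases in GENCODE vM21.

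Lower in spermatid-like cells were Kif5b (log2 fold change -2.46 ± 0.22, adjusted p = 1.4e-28), Kif11 (-1.81 ± 0.31, 2.1e-08), Kif23 (-1.03 ± 0.19, 4.2e-07), Kif20b (-1.01 ± 0.17, 5.2e-09), Kif22 (-0.94 ± 0.33, 0.0101) and Kif20a (-0.91 ± 0.28, 0.0038). With coarser clusters Kif11, Kif22 and Kif20a were not called (-1.88, -0.97 and -1.39), nor was Kif22 with Wild-type libraries alone (-0.90). Kif5b averaged 5.03 CPM in round and 5.70 CPM in elongating spermatid-like cells, below Kif5c in both. Of 16 genes of the manchette and of head shaping, 14 were higher and 0 lower with TMM, and 8 higher and 3 lower with library totals, among them Spem1 (4.36), Clip1 (3.30) and Hook1 (3.05). Odf1 and Meig1 of this list were also markers that named the elongating spermatid-like and the pachytene-like class. Its genes, unlike the kinesins, were not kept out of the clustering, so these counts are partly set by how the classes were made. Of 19 intraflagellar transport proteins, the cargo of kinesin-2, 8 were higher and 6 lower with TMM but 1 higher and 16 lower with totals, and Ift172 (3.58) was the one higher under both. Of 11 adaptors and partners of kinesins, 3 were higher and 4 lower with TMM, and 2 higher and 7 lower with library totals. Klc3, a testis light chain of conventional kinesin, was higher by 4.60 ± 0.35 and Kifap3, which joins Kif3a and Kif3b to cargo, by 3.40 ± 0.15, while the ubiquitous light chain Klc1 fell by 1.38 on the log2 scale. Of 20 spindle partners, 0 were higher and 15 lower with TMM, and 0 higher and 18 lower with library totals.

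Promoter windows of spermatid kinesins are shown for Kif2b (chr11:91577506-91577805, minus strand), which had the highest level of all, and Kif17 (chr4:138262001-138262300, plus strand), which holds TGACGTCA, the full binding letters of cAMP-responsive factors, found in 1.79% of all windows and in 3 of the 33 kinesin genes. GTTGCC, part of the X-box read by RFX factors, was in 4 of 8 cilium kinesins with a window, 3 of 15 spindle kinesins and 12.5% of all windows. The Kif17 window is set around a RefSeq start that lies inside the GENCODE gene. Capitals mark CCAAT in Kif2b, and TGACGTCA and GTTGCC in Kif17. No TTTGAA was found in either window.
Kif2b: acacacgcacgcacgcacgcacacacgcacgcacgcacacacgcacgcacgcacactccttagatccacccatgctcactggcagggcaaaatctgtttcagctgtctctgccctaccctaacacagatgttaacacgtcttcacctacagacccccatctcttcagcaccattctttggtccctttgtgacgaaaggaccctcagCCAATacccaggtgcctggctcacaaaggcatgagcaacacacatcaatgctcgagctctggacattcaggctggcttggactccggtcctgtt
Kif17: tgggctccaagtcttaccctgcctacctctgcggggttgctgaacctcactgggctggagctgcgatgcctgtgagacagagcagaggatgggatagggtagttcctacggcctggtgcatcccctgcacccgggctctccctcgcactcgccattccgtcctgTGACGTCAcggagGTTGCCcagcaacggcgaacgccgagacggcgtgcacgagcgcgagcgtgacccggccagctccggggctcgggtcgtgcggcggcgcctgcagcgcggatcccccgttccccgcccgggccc

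The sorted libraries gave 1 value each for the populations labelled with later stages. Of the 154 cells of the library labelled Secondary Spermatocyte that were kept, 72 fell into elongating spermatid-like, 44 into round spermatid-like and 5 into meiotic division-like clusters, so this library goes partly against its label. Of 188 cells kept from the Primary Spermatocyte library, 172 fell into unnamed and 10 into pachytene-like clusters. With coarser clusters, 157 of its cells fell into an unnamed cluster led by hemoglobin genes (Hbb-bs, Hbb-bt, Hba-a1 and Hba-a2). Most of its cells thus did not bear out its label, and its values are those of the library and not of a stage. Kif2b was at 271 CPM (181 to 389) in the library labelled Primary Spermatocyte, 1236 CPM (1105 to 1379) in the library labelled Secondary Spermatocyte and 961 CPM (841 to 1095) in the library labelled Spermatid. Kif17 rose from 10.3 CPM (5.31 to 17.9) in sorted spermatogonia to 99.2 CPM (64.8 to 145) and 126 CPM (85.3 to 181) in the last 2 libraries, and Kif27 from 47.1 CPM (35.5 to 61.3) to 347 CPM (280 to 426) and 325 CPM (256 to 406), with intervals that do not overlap those of spermatogonia. Kif23 went the other way, at 228 CPM (201 to 257) in spermatogonia, 28.0 CPM (5.78 to 81.8) in the Primary, 42.0 CPM (21.0 to 75.1) in the library labelled Secondary Spermatocyte and 4.22 CPM (0.107 to 23.5) in the Spermatid library. Kif2a was at 315 CPM (284 to 349), 411 CPM (298 to 551), 267 CPM (208 to 337) and 228 CPM (171 to 297) in the same order, and the intervals of the Primary Spermatocyte and Spermatid libraries do not overlap.

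**Figure D3:**
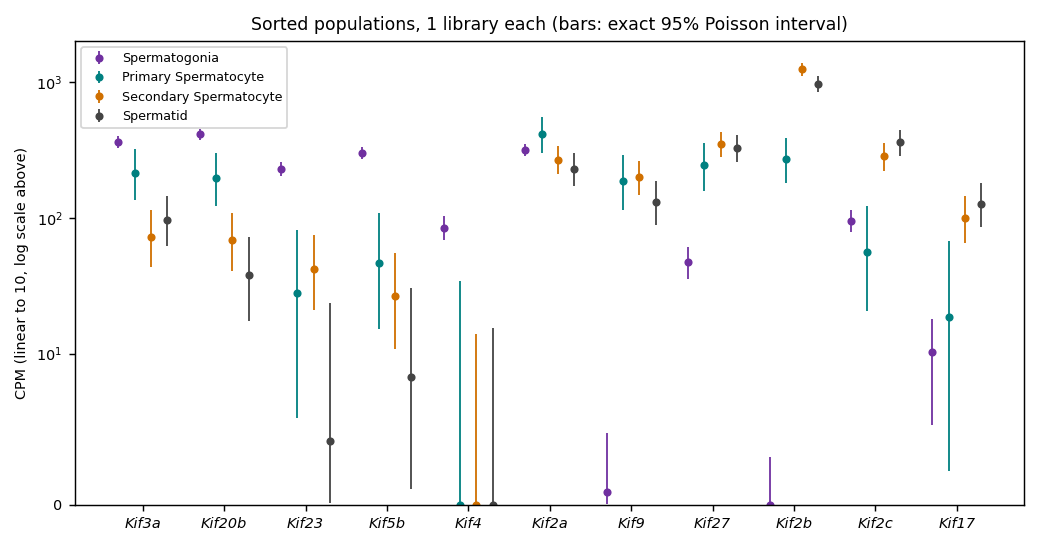
Level of 11 kinesins (CPM, log axis) in the 4 sorted libraries, with exact 95% Poisson intervals as bars; each population is 1 library, and the bars cover counting error only. Kif3a, Kif20b, Kif5b, Kif23 and Kif4 are highest in sorted spermatogonia (84.7 to 410 CPM), and Kif2b, Kif9, Kif27, Kif17 and Kif2c are highest in the libraries labelled Secondary Spermatocyte or Spermatid.

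In Sertoli-like cells 4 kinesins were higher and 9 lower than the mean of the 6 germ classes with TMM (13 of 41, where 18.8% of all genes were called), and 4 were higher and 1 lower with library totals, where 21.3% of all genes were called. Kif21a was at 91.9, 385, 119, 105 and 170 CPM in the Wild-type replicates 6, 7, 8, 10 and 11, at 1609, 419, 507 and 502 CPM in the Mlh3 replicates 2, 4, 5 and 6, and at 169 and 242 CPM in the Cul4a replicates. Every Mlh3 value lay above every other. The germ classes averaged 4.24 to 42.8 CPM. The log2 fold change was 3.73 ± 0.24 (edgeR's quasi-likelihood test, adjusted p = 9.9e-53). With the Sertoli-like cells of the Mlh3 libraries alone, an alternative chosen after seeing the data because spermatid markers were near 0 in these cells, it was 4.09. Kif5b was at 184, 0, 356, 211 and 227 CPM in the Wild-type, 911, 475, 476 and 413 CPM in the Mlh3 and 131 and 121 CPM in the Cul4a Sertoli-like cells, again with Mlh3 above the others. Its log2 fold change was 2.44 ± 0.21 (adjusted p = 4.3e-28), and 3.04 with the Mlh3 cells alone.

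Kif2b was also called higher in Sertoli-like cells (0.65 ± 0.24, edgeR's quasi-likelihood test, adjusted p = 0.0388). Its level moved with the spermatid markers of the libraries, whose part was not tested. It was at 368, 513, 475, 1368 and 680 CPM in the Wild-type and 282 and 606 CPM in the Cul4a profiles, where elongating spermatid markers summed to 29495 to 81611 CPM, and at 0 CPM in all 4 Mlh3 profiles, where they summed to 27.9 to 118 CPM. With Mlh3 Sertoli-like cells alone the Kif2b log2 fold change was -4.35 (adjusted p = 0.461), and without Cul4a replicate 2 it was 0.29 and not called. Kif2a was lower than in germ cells under both scalings (284 ± 115 CPM, log2 fold change -0.98 ± 0.20, adjusted p = 1.8e-05). Of the spindle kinesins 1 was higher and 6 lower with TMM and 1 and 1 with totals, and Kif22, Kif15, Kif20b, Kif2c and Kif23 (log2 fold changes of -2.11 to -0.94) passed with TMM only. With DESeq2 none of these 5 was called, and without the mt-Rnr2 limit Kif20b turned around (0.23) and Kif15 (-0.16) and Kif23 (-0.30) were not called. Of 15 cargo kinesins 3 were higher and 0 lower under each scaling, and of 9 cilium kinesins 0 were higher and 3 (Kif3a, Kif9 and Kif27) lower with TMM and 0 with totals. Single libraries decided some of these calls: Kif22 was lost without Mlh3 replicate 2 (-1.76) or 6 (-1.72), Kif2c without Mlh3 replicate 5 (-0.71), Kif23 without Cul4a replicate 2 (-0.47) and Kif9 without Cul4a replicate 2 or Mlh3 replicate 2, 5 or 6 (-0.78 to -0.62). Among the adaptors 2 were higher and 0 lower with TMM, and 4 higher and 0 lower with totals.

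**Figure D4:**
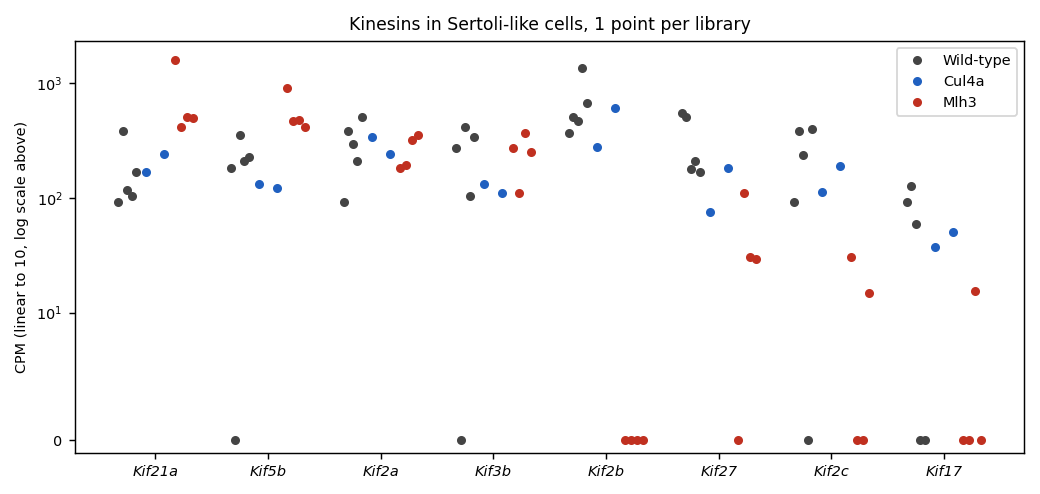
Level of kinesins in the Sertoli-like cells of each library (CPM, 1 point per library, by strain). Kif21a and Kif5b lie at 413 to 1609 CPM in the 4 Mlh3 libraries and at 0 to 385 CPM in the Wild-type and Cul4a libraries, and Kif2b lies at 0 CPM in all 4 Mlh3 libraries and at 282 to 1368 CPM in the others.

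Leydig-like cells, had from Mlh3 and Cul4a libraries only, gave 5 kinesins higher and 16 lower than the germ classes with TMM (21 of 41, where 27.0% of all genes were called), and 9 higher and 11 lower with library totals, where 26.4% of all genes were called. Kif1c, with the largest log2 fold change of the family here, was at 18.6, 60.7, 58.5, 134, 59.5 and 28.5 CPM in the Mlh3 replicates 1 to 6 and 52.7 and 55.3 CPM in the Cul4a replicates (38 UMIs), against a mean of 22.7 CPM or less in every germ class, although 1 leptotene/zygotene-like profile had 101 CPM on 1 UMI. Its log2 fold change was 4.44 ± 0.48 (adjusted p = 7.4e-19). Kif5b was at 273, 607, 380, 501, 372, 442, 316 and 193 CPM in the same libraries, with a log2 fold change of 2.31 ± 0.21 (adjusted p = 2.3e-27). Kif21a was at 76.1, 364, 175, 83.5, 96.8, 143, 70.2 and 55.3 CPM, with 1.51 ± 0.32 (adjusted p = 2.4e-05). Every Leydig-like value of Kif5b exceeded every pachytene-like value, but Kif5b in Leydig-like cells overlapped that in spermatogonia-, leptotene/zygotene- and Sertoli-like cells. With Mlh3 libraries alone the 3 fold changes were 5.11, 2.79 and 1.80. Kif2b had 0 UMIs in the 6 Mlh3 profiles and 123 and 166 CPM in the Cul4a profiles, where elongating spermatid markers summed to 14.9 to 98.3 CPM and to 14397 to 18308 CPM.

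Of the 16 spindle kinesins 0 were higher and 10 lower in Leydig-like cells with TMM, and 7 were lower with totals. Kif23 (25.7 ± 33.0 CPM, log2 fold change -2.49 ± 0.37, adjusted p = 3.0e-10), Kif2c (49.3 ± 30.1 CPM, -2.33 ± 0.32, 8.0e-12), Kif15 (-2.03 ± 0.34), Kif2a (-1.67 ± 0.24) and Kif20a (-1.60 ± 0.38) were lower under both scalings. Among the 9 cilium kinesins 1 was higher and 5 lower with TMM and 1 and 4 with totals, and Kif9 (-1.67 ± 0.33) and Kif27 (-1.60 ± 0.31) were lower under both, but neither was called with DESeq2 (-0.81 and -0.56) or with coarser clusters (-1.16 and -0.18), and Kif9 was not with Mlh3 Leydig-like cells alone (-0.89). Kif20a was not called with DESeq2 either (-1.05). The 15 cargo kinesins gave 4 higher and 1 lower with TMM, and 8 higher and 0 lower with totals. Kif1b, a carrier of mitochondria and synaptic vesicle precursors, had its highest mean of the 8 classes here (185 ± 129 CPM) but was not called. Of the 11 adaptors 4 were higher and 1 lower with TMM, and 5 higher and 1 lower with totals.

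Over whole libraries, 15 kinesins were higher and 15 lower in Mlh3 than in Wild-type testis with TMM (30 of 41, where 61.2% of all genes were called), and 17 were higher and 10 lower with library totals, where 65.0% of all genes were called. In a whole testis fewer cells of a type and less RNA per cell cannot be told apart. Kif2b was at 750 to 1419 CPM in the Wild-type libraries (median 898) and had 0, 0, 0.46, 1.07, 1.6 and 0.946 CPM in the Mlh3 replicates 1 to 6, on 15 UMIs in all. Its log2 fold change was -10.38 ± 0.32 (edgeR's quasi-likelihood test, adjusted p = 4.2e-25). Kif17 was at 48.5 to 207 CPM in Wild-type (median 84.8) and at 1.16, 2.22, 1.38, 0, 1.6 and 1.89 CPM in Mlh3 libraries, with a log2 fold change of -6.44 ± 0.35 (adjusted p = 1.4e-17). Kif16bos was at 15.5 to 37.9 CPM in Wild-type and had 1 UMI in the 6 Mlh3 libraries together. Kif2c (193 to 292 against 41.9 to 72.2 CPM, -2.67 ± 0.17) and Kif27 (285 to 448 against 84.7 to 139 CPM, -2.17 ± 0.17) were lower without overlap but kept a part of their level.

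Higher in Mlh3 libraries was Kif5b, at 233, 444, 383, 153, 134 and 86.6 CPM against 11.9 to 42.0 CPM in Wild-type (median 16.8), with a log2 fold change of 3.13 ± 0.25 (adjusted p = 2.6e-12). Kif21a was at 57.1, 344, 177, 91.8, 73.4 and 58.8 CPM against 5.60 to 21.8 CPM, with 2.36 ± 0.26 (adjusted p = 9.7e-09). Neither overlapped. The share of somatic cells moved with them: Leydig-like and Sertoli-like cells were 20.8% and 5.99% of the Mlh3 cells kept and 0.18% and 0.431% of the Wild-type cells, and their part was not tested. Of the spindle kinesins, Kif11 (60.8 to 93.2 against 18.3 to 35.3 CPM, 1.10 ± 0.15), Kif20b (139 to 328 against 53.2 to 110 CPM, 0.77 ± 0.16) and Kif15 (0.56 ± 0.16) were higher under both scalings. Kif13b (0.74 ± 0.21), Kif6 (0.54 ± 0.21) and Kif1b (0.39 ± 0.16) passed too but were not called without Mlh3 replicate 1 (0.40, 0.33 and 0.14). Mlh3 replicates 2 and 3 have the same age on their labels, and with both summed to 1 library Kif15 (0.28, adjusted p = 0.165), Kif13b (0.47), Kif6 (0.31) and Kif1b (0.02) were not called, and Kif15 was not called without Mlh3 replicate 4 (0.27) or 5 (0.38). Kif6 was also lost without 7 of the other single libraries and Kif1b without 7 of the others. Kif23 overlapped (59.0 to 81.2 CPM in Wild-type, 55.1 to 73.2 CPM in Mlh3) and was called lower with TMM only. Of 16 spindle kinesins 5 were higher and 6 lower with TMM, of 9 cilium kinesins 2 and 3, and of 15 cargo kinesins 8 and 5. With library totals these counts were 7 and 3, 2 and 3, and 8 and 3.

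Within pachytene-like cells, which both strains have, 5 kinesins were higher and 4 lower in Mlh3 than in Wild-type libraries (9 of 39 tested, where 16.6% of all genes were called), and 5 higher and 3 lower with library totals. Kif2b was at 33.0 to 89.0 CPM in 9 Wild-type libraries (153 UMIs) and 0 to 1.91 CPM in 6 Mlh3 libraries (9 UMIs), with a log2 fold change of -5.41 ± 0.37 (adjusted p = 3.2e-31). Kif17 was lower by -2.62 ± 0.53 (adjusted p = 4.0e-05) at 4.88 to 18.9 against 0 to 2.55 CPM, and Kif2c by -0.48 ± 0.18 with TMM only, a call lost without Mlh3 replicate 4, 5 or 6 (-0.46 to -0.37), with DESeq2 (-0.40), filterByExpr (-0.49) or classes of 20 cells (-0.46) and without the mt-Rnr2 limit (-0.22), and turned around with coarser clusters (0.081). The summed elongating spermatid markers moved with them, from 2304 to 6232 CPM in Wild-type to 22.1 to 102 CPM in Mlh3 pachytene-like cells, and their part was not tested. Kif5b was higher by 1.26 ± 0.24 (adjusted p = 3.3e-05), at 115, 177, 121, 61.7, 42.1 and 41.0 CPM in the Mlh3 replicates 1 to 6 against 9.76 to 45.0 CPM in Wild-type, with overlap. Kif1b (0.77 ± 0.22), Kif15 (0.71 ± 0.18) and Kif11 (0.55 ± 0.18) were also higher. With coarser clusters the Kif5b fold change was 0.27, and without the mt-Rnr2 limit it was 0.62, and neither was called. Kif1b (0.58 and 0.58) and Kif11 (0.56 and 0.40) were not called under the same alternatives, nor Kif15 with coarser clusters (0.63) and Kif11 also without Mlh3 replicate 1 (0.46). Leydig markers summed to 10.7 to 44.5 CPM in Wild-type and 79.0 to 2415 CPM in Mlh3, and Sertoli markers to 91.6 to 243 and 213 to 1909 CPM, and their part in the higher kinesins was not tested. Clusters 5, 23 and 8 held 43.7%, 34.3% and 22.0% of the Wild-type and 43.0%, 23.5% and 33.5% of the Mlh3 cells of the class.

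For the Cul4a and CNP testes, with 2 libraries each, few kinesins passed edgeR's test. Over whole libraries 1 kinesin, Kif16b, was lower in Cul4a (where 2.11% of all genes were called): it was at 32.2 to 53.2 CPM in the 11 Wild-type libraries and at 19.6 and 19.2 CPM in the Cul4a libraries, with a log2 fold change of -1.003 ± 0.25 (edgeR's quasi-likelihood test, adjusted p = 0.0222). Without Cul4a replicate 1 (-0.97) or 2 (-1.03), which leaves 1 Cul4a library assumed to vary like the other groups, it was not called. At an unadjusted p under 0.05 there were 9 kinesins, 2 higher and 7 lower, where 15.6% of all genes were under that limit. DESeq2 called 6, all lower (Kif2b, Kif3b, Kif16b, Kif22, Kif23 and Kif27), where it called 6.45% of the genes it gave an adjusted p. Kif2b was at 540 and 684 CPM in the Cul4a libraries, below all Wild-type values, as were Kif2a (419 and 402 CPM against 429 CPM or more), Kif3b (183 and 182 against 207 or more) and Kif27 (189 and 218 against 285 or more). None of these passed edgeR's test, and the share of all genes lying below all Wild-type values was not counted. In the CNP libraries 0 kinesins passed, where 0.449% of all genes were called with TMM and 0.458% with library totals. There edgeR gave 4 kinesins at an unadjusted p under 0.05 (9.39% of all genes), and DESeq2 called 2 (Kif2c and Kif27, both lower), where it called 5.91% of genes.

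Within round spermatid-like cells, 35 kinesins could be tested. In Cul4a 1 was called, Kif22, at a mean of 4.88 against 12.3 CPM (log2 fold change -1.39 ± 0.41, adjusted p = 0.0251), where 4.89% of all genes were called. It was not called without either Cul4a library. At an unadjusted p under 0.05 there were 6 (17.9% of all genes), and DESeq2 called 2 (Kif2b and Kif27), where it called 5.57% of genes. Kif2b was at 1405 and 1504 CPM in the Cul4a and 1745 to 2585 CPM in the Wild-type round spermatid-like cells, without overlap. The share of all genes without overlap was not counted. In Cul4a 60.6% of these cells lay in cluster 21, while in Wild-type clusters 10, 17 and 19 held 24.5%, 24.0% and 22.5%. In CNP 0 kinesins passed edgeR's test, where 0.421% of all genes were called, 1 (Kif5c, log2 fold change -1.89) had an unadjusted p under 0.05 (6.01% of all genes) and DESeq2 called 0 (1.6% of genes). Kif2b was at 1751 and 2017 CPM in the CNP cells, within the Wild-type range.

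The rest of the family was sparse. In the means of the 8 classes and in the sorted populations 7 kinesins stayed under 20 CPM: Kif1a, Kif3c, Kif7, Kif13a, Kif26b, Kifc2 and Kifc5b. Over all 25 libraries Kif7, the Hedgehog pathway kinesin, had 99 UMIs, Kifc2 86, Kif26a 60 and Kif26b 16. Of these, Kif26a had 32 UMIs in sorted spermatogonia (27.4 CPM, 18.7 to 38.7), Kif7 23 (19.7 CPM, 12.5 to 29.5) and Kifc2 8 (6.85 CPM, 2.96 to 13.5), and all 3 had 0 in the other sorted libraries, which allows up to 28.0 CPM in the shallowest. Kif1a, the axonal vesicle motor, was at 10.1 ± 7.77 CPM in elongating and 1.88 ± 2.76 CPM in round spermatid-like cells and had no UMI in spermatogonia- or leptotene/zygotene-like cells. Its highest class mean was in Sertoli-like cells (18.3 ± 31.1 CPM), on 8 UMIs in 4 of 11 libraries. Kif14 and Kif24, which act in cytokinesis and on centriole caps, were at 52.6 ± 53.2 and 25.9 ± 38.3 CPM in spermatogonia-like cells and under 16 CPM in the other 7 classes. Kif5a, the further neuronal heavy chain, was at 21.4 ± 21.8 CPM in spermatogonia-like and 17.9 ± 22.6 CPM in Leydig-like cells and under 1 CPM from the divisions on.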

How the data were processed

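UMI counts per gene symbol and cell barcode were deposited by the authors, not normalized, as 1 table per library of the 25 libraries. The authors had used the Drop-seq pipeline with STAR 2.5.3a on mm10 with a GRCm38 annotation, STAR's version being from the submitters' processing notes. Whether reads were counted by strand is not given in the sources used here.

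Barcodes with under 200 UMIs or 50 genes, over 1 SD below the mean of their library, or above a limit on mt-Rnr2 were left out, which kept 36619 of 48642. No doublet caller was run. Counts per cell total were square-rooted, scaled and clustered without kinesin rows (Leiden resolution 2, 45 clusters), and a cluster was named from markers or left unnamed. Class names are rebuilt and may differ from those of the study. Between libraries, up to 27 barcodes were shared in a pair (median 2 over 300 pairs), with Wild-type 6 and 10 sharing the most. No library was a duplicate of another, since the lowest chi-square per gene between replicates was 1.82 (Wild-type 6 and 7).

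UMIs were summed per library and class (10 cells or more) and tested with edgeR 4.0.16 (quasi-likelihood, TMM, genes with 5 counts or more, Benjamini-Hochberg, adjusted p of 0.05), with the library as a block between classes and strain as the factor within a class or over whole libraries. DESeq2 1.42.0 was the alternative. Sorted libraries have exact Poisson intervals of 95%, and an upper limit for 0 UMIs is 3 counts. Intervals and limits cover counting error only. The labels do not say which whole-testis libraries came from separate animals (the study speaks of 11 wild-type animals), so p-values measure the spread between libraries, which may be technical. In simulated counts for the comparison of division-like cells, 73% of genes changed by 1 and 100% of those changed by 2 on the log2 scale were recovered, and 5% and 47% for round spermatid-like cells of Cul4a. For whole Mlh3 libraries these were 11% and 98%, and for pachytene-like cells of Mlh3 22% and 88%. Each simulation used 1 pooled expression profile and a fixed spread, with 200 genes of 20 CPM or more changed. Sparser genes were not changed, and differences in expression profile and scale factor between classes were not simulated.

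The members, roles and gene lists were chosen with earlier results of these data known. Folds are given for up to 8 kinesins per direction and comparison with 20 CPM or more on the higher side, and for Kif5b, Kif21a, Kifc1, Kifc5b, Kif17, Kif9, Kif3a, Kif3b, Kif11, Kif23, Kif20a, Kif22, Kif18a, Kif2c, Kif4 and Kif15. Any other kinesin named was chosen after its values were seen. Symbols were matched to GENCODE vM21 (41 of 41). Tools were Python 3.11.15, leidenalg 0.10.2 and R 4.3.3.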

Additional observations from a re-analysis of the deposited data

Results flagged for a closer look

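In groups of 4 to 10 libraries, the highest or lowest library was set apart where its gap to the next, as a share of the range, passed Dixon's 95% limit. Of 60 groups of kinesin levels 7 were, where chance gives about 1 in 20. In Leydig-like cells (n = 8), Mlh3 replicate 2 stood above the others in Kif1b (485 CPM, median 155), Kif20b (243 CPM, median 95.6) and Kif21a (364 CPM, median 90.1), Mlh3 replicate 4 in Kif1c (134 CPM, median 56.9) and Mlh3 replicate 1 in Kif9 (143 CPM, median 23.4). In spermatogonia-like cells (n = 5), Mlh3 replicate 6 stood above the others in Kif11 (578 CPM, median 51.1) and Kif13b (222 CPM, median 30.9), a kinesin of polarised transport. Mlh3 replicate 2 also had the highest Kif21a of the 11 Sertoli-like profiles (1609 CPM).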

How the results depend on the processing

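Of 97 results on single kinesins, 54 stayed on the same side of the threshold under every alternative run, and of 1197 values 1033 stayed, 160 kept their direction but lost the call and 4 reversed. The reversals were Kif2b in Sertoli-like cells without the limit on mt-Rnr2 (-0.42) and with Mlh3 somatic cells alone (-4.35), Kif20b in Sertoli-like cells without the limit on mt-Rnr2 (0.23), and Kif2c in pachytene-like cells of Mlh3 at Leiden resolution 1 (0.081). The cause of these and of the changes in counts was not tested. With DESeq2 the kinesins called were 13 rather than 20 between elongating and round spermatid-like cells, 7 rather than 13 in Sertoli-like, 11 rather than 21 in Leydig-like cells, 6 rather than 1 in whole Cul4a, 2 rather than 0 in whole CNP libraries and 2 rather than 1 in Cul4a round spermatid-like cells. With library totals Sertoli-like cells gave 5. With somatic cells of Mlh3 alone, chosen after seeing the data, Sertoli-like cells gave 6 and Leydig-like cells 11. At Leiden resolution 1 spermatid-like against earlier cells gave 15 rather than 23 and pachytene-like cells of Mlh3 4 rather than 9. The latter gave 5 with filterByExpr and 3 without the limit on mt-Rnr2. Mechanical HiSeq libraries alone gave 5 in whole Cul4a, 1 in whole CNP and 4 in Cul4a round spermatid-like cells. Where no share of all genes called is given for a count in this section, it describes the processing and not the kinesins. Leaving out 1 library at a time gave 9 to 16 for spermatogonia-like (9 without Cul4a replicate 1), 9 to 13 for Sertoli-like, 16 to 20 for Leydig-like, 26 to 30 for whole Mlh3, 0 to 1 for whole Cul4a, 0 for whole CNP, 7 to 9 for pachytene-like cells of Mlh3 and 0 for round spermatid-like cells of Cul4a and of CNP. No Wild-type library was left out in these runs. Between classes, only libraries with a spermatogonia-like profile were left out, so some Sertoli-like and Leydig-like libraries never were. The meiotic division-like and spermatid-like comparisons had no such run. Wild-type libraries alone and classes of 20 cells gave no value for spermatogonia-, Sertoli- and Leydig-like cells, since the spermatogonia-like class enters all these comparisons and then had no profile. Depth limits the values of sparse classes, where a profile could hold 3989 UMIs (leptotene/zygotene-like), 7798 (Sertoli-like) or 16486 (Leydig-like).

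Replicate numbers are shared between strains, but they do not pair the samples: the correlation of same-numbered libraries' deviations from their strain mean was -0.23 to 0.12 for Mlh3 (6 pairs), -0.14 and 0.22 for Cul4a and -0.20 and 0.25 for CNP. With a replicate block 25 kinesins were called in whole Mlh3, 0 in whole Cul4a, 0 in whole CNP, 3 in pachytene-like cells of Mlh3, 1 in round spermatid-like cells of Cul4a and 1 in those of CNP.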

Other observations

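Small somatic classes were summed over all libraries, with no replicate and with exact 95% Poisson intervals that cover counting error only. Telocyte-like cells (67 cells, 55422 UMIs), stromal cells with long processes, had 11 UMIs of Kif1b (198 CPM, 99.1 to 355), 10 of Kif2a (180 CPM, 86.5 to 332) and 8 of Kif5b (144 CPM, 62.3 to 284). Macrophage-like cells (25 cells, 27345 UMIs) had 7 UMIs of Kif3a (256 CPM, 103 to 527), 5 of Kif5b (183 CPM, 59.4 to 427) and 0 of Kif1b, which allows up to 110 CPM. Kif2b was counted mostly where elongating spermatid markers were. Of its 14 UMIs in telocyte-like cells, 12 came from Wild-type, 1 from Cul4a and 1 from Mlh3 libraries, where the 14 markers had 412, 388 and 1 UMIs. Of its 6 UMIs in macrophage-like cells, 3 came from Wild-type, 3 from Cul4a and 0 from Mlh3 libraries, where the markers had 74, 264 and 0 UMIs. The part of spermatid RNA in these counts was not tested.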
